A study of Mus musculus with 10 samples.

Results

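Chemokines that attract monocytes, and the receptors that read them, were followed in mouse liver tumors as 9 genes: the ligands Ccl2, Ccl7, Ccl12, Ccl8, Ccl5 and Cx3cl1 and the receptors Ccr2, Ccr1 and Cx3cr1. They were taken by gene symbol from a table of 52459 genes, and all 9 were in it. RNA from flash-frozen tumors was sequenced in 5 MYC/Twist1-HCC libraries and 5 MYC-HCC libraries (HCC, hepatocellular carcinoma). MYC/Twist1-HCC came from FVB/N mice that carried LAP-tTA, TRE-MYC and TRE-Twist1/Luc, and MYC-HCC from FVB/N mice that carried LAP-tTA and TRE-MYC. LAP-tTA is a tetracycline-controlled transactivator under a liver-enriched promoter, so that both groups expressed MYC in the liver through the same driver, and the MYC/Twist1 mice also expressed Twist1 and luciferase. All mice received doxycycline, which holds the transgenes off, until 6 weeks of age, and tumors were taken when the animals became moribund, with no age given per tumor in the labels.

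No member passed the test of the group difference (0 of 9, where 0.0147% of the 20442 genes tested with them passed as higher and 0% as lower). Twist1 itself, with no overlap between the groups, did not pass either (log2 difference 5.15, SE 1.0, adjusted p = 0.091 in limma over 12146 genes). It was kept by the expression filter through the 5 MYC/Twist1-HCC libraries and 0 of MYC-HCC. Its spread was its own and does not measure how well the test could find a difference in the members. Failing this test is no evidence of equal levels. Ccl2, the chemokine of the study's question, had nearly the same mean RNA level in the whole tumors of both groups. The paper measured Ccl2 as protein in conditioned media and as RNA in cultured tumor cells, neither of which is covered here. Ccl7, Ccl12, Ccl8 and the receptor Ccr1 had higher means in MYC/Twist1-HCC, with log2 differences from 1.20 to 2.23. In limma over the 20442 genes their unadjusted p was under 0.05 (as in 6.81% of the genes, higher) and their adjusted p 0.256 or more. Ccl5, Ccr2 and Cx3cr1 also had higher means in MYC/Twist1-HCC, with log2 differences of 0.71, 0.37 and 0.22. In the same limma fit their unadjusted p was 0.1, 0.346 and 0.609. Cx3cl1 had a lower mean in MYC/Twist1-HCC.

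Chemokines are small secreted proteins that guide leukocytes along a gradient through receptors coupled to G proteins. Ccl2 acts on Ccr2, the receptor with which classical monocytes leave the bone marrow and enter inflamed tissue, and Ccl7 and the mouse chemokine Ccl12 act on the same receptor. Ccl5 and Ccl7 also act on Ccr1, which monocytes and neutrophils carry. Cx3cl1 (fractalkine) is made as a membrane protein with a chemokine head that can be shed, and Cx3cr1, its receptor, marks patrolling monocytes and many tissue macrophages. In the liver, resident macrophages are Kupffer cells, and macrophages recruited from blood monocytes join them in injury and in tumors. The study asked whether Twist1 together with MYC changes which cytokines the tumor cells release and how macrophages are drawn in.

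Several of the genes lie close together in the genome. Ccl2, Ccl7, Ccl12 and Ccl8 stood in this order on chromosome 11 of GRCm38, within 81229 bp from the start of Ccl2 to the end of Ccl8, all on the plus strand. Ccl5 lay on the same chromosome from 83525778 to 83530518 on the minus strand. Ccr1 and Ccr2 lay 133258 bp apart on chromosome 9, which also holds Cx3cr1. Cx3cl1 was the member on chromosome 8, from 94772009 to 94782427.

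Promoter sequences (RefSeq, GRCm38.p6, from 250 bases before to 50 bases after the annotated start) were at hand for 6 of the 9 members. Those of Ccl12, Ccl8 and Ccr1 are shown because these genes had the largest group differences among the 6. The window of Ccl12 is chr11:82101595-82101894 on the plus strand, that of Ccl8 chr11:82114935-82115234 on the plus strand, and that of Ccr1 chr9:123968643-123968942 on the minus strand. Capitals mark every CANNTG, the E-box that basic helix-loop-helix factors bind, Twist1 and MYC among them.
Ccl12: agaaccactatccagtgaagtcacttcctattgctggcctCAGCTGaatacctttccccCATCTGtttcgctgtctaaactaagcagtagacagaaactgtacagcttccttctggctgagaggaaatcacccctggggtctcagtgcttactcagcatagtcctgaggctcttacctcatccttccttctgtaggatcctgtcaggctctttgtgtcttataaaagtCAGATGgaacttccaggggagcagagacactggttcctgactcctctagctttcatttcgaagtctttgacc
Ccl8: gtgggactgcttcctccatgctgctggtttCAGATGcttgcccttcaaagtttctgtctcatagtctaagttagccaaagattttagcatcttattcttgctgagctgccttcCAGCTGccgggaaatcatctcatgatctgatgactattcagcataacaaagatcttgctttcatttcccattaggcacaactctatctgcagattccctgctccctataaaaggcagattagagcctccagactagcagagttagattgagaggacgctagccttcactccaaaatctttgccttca
Ccr1: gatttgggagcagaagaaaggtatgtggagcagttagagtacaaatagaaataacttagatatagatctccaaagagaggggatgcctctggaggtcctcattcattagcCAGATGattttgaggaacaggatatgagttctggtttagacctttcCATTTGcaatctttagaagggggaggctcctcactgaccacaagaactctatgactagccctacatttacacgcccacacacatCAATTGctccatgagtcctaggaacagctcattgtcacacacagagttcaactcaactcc

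The Ccl12 window held 3 E-boxes and the Ccl8 window 2, and both held CAGATG and CAGCTG forms on one strand or the other. Both also held a TATAAAA, which began 31 bases before the start in Ccl12 and 32 bases before it in Ccl8. The Ccr1 window held 3 E-boxes, of which CAATTG began 10 bases before the start. Of the other windows, Cx3cl1 and Ccr2 had 1 E-box each and Cx3cr1 had 3. CACGTG, the E-box form best known for MYC, was in 0 of the 6 windows. Among 32851 promoter windows of the same length, 72.3% held CANNTG, 7.15% CACGTG, 17.2% CAGATG and 5.48% TATAAAA on either strand, where CACGTG and CAGATG are themselves counted as CANNTG. An E-box in a window is therefore the usual case, and these letters are a description of sequence only.

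Twist1 levels did not overlap between the groups and varied widely within MYC/Twist1-HCC. Replicates 1 to 5 of MYC/Twist1-HCC held 2.56, 26.05, 77.19, 1.62 and 2.21 FPKM of it (fragments per kilobase of gene model and per unit of library depth), and at 0.06, 0, 0.19, 0.29 and 0.11 FPKM in MYC-HCC libraries 1 to 5. The MYC-HCC columns of the table share one heading, so these libraries are numbered by column and are not tied to single tumors. The depth estimated from short genes was 21.08 to 23.66 M reads in MYC/Twist1-HCC and 19.11 to 23.39 M reads in MYC-HCC. MYC-HCC library 4 stood apart from the other libraries, with a limma quality weight of 0.184 against 0.599 to 4.018 elsewhere and the highest endothelial marker sum, 63.6 FPKM. Hepatocyte markers were present in every library, with Alb at 1313.46 to 7146.52 FPKM in MYC/Twist1-HCC and at 368.23 to 3737.2 FPKM in MYC-HCC. These are bulk tumors, so fewer cells of a type and less RNA per cell cannot be told apart in any value given here.

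The chemokine genes were near the lower end of what this depth can resolve. The 5 CC chemokines have gene models of 511 to 1138 bp, and 43 of their 48 values above 0 came to a whole number of reads within 0.2. Summed over 5 libraries, Ccl2 stood on an estimated 169.4 reads in MYC/Twist1-HCC and 136.8 in MYC-HCC. Ccl7 stood on 36.8 reads in MYC/Twist1-HCC and 9.9 in MYC-HCC, Ccl12 on 86.8 in MYC/Twist1-HCC and 15 in MYC-HCC, and Ccl8 on 141.7 in MYC/Twist1-HCC and 19 in MYC-HCC. Ccl5 and Cx3cl1 stood on more, with 468.2 and 571.6 reads in MYC/Twist1-HCC and 268.1 and 780.3 in MYC-HCC.

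Ccl2, the main ligand of Ccr2, did not differ between the groups beyond the spread of the libraries. It was at 1.68, 1.59, 0.53, 1.43 and 1.41 FPKM over MYC/Twist1-HCC replicates 1 to 5, against 1.08, 0.86, 1.70, 0.71 and 1.31 FPKM in MYC-HCC libraries 1 to 5. The highest value was in MYC-HCC library 3 and the lowest in MYC/Twist1-HCC replicate 3, the library with the most Twist1, and the ranges overlapped from end to end. The means were 1.33 ± 0.46 FPKM in MYC/Twist1-HCC and 1.13 ± 0.39 FPKM in MYC-HCC (SD, n = 5 each), a log2 difference of 0.18 (SE 0.33, 95% interval -0.55 to 0.92, adjusted p = 0.811 in limma over the tested table). The difference was 0.46 without MYC/Twist1-HCC replicate 3 (adjusted p = 0.381, limma) and 0.05 without MYC-HCC library 4 (adjusted p = 0.941, limma), and the adjusted p ran from 0.381 to 0.959 over the alternatives. The gene spans 82035571 to 82037453 of chromosome 11, inside the antisense gene Gm17268, which shares none of its exons and was listed at 0 FPKM in every library.

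**Figure D1:**
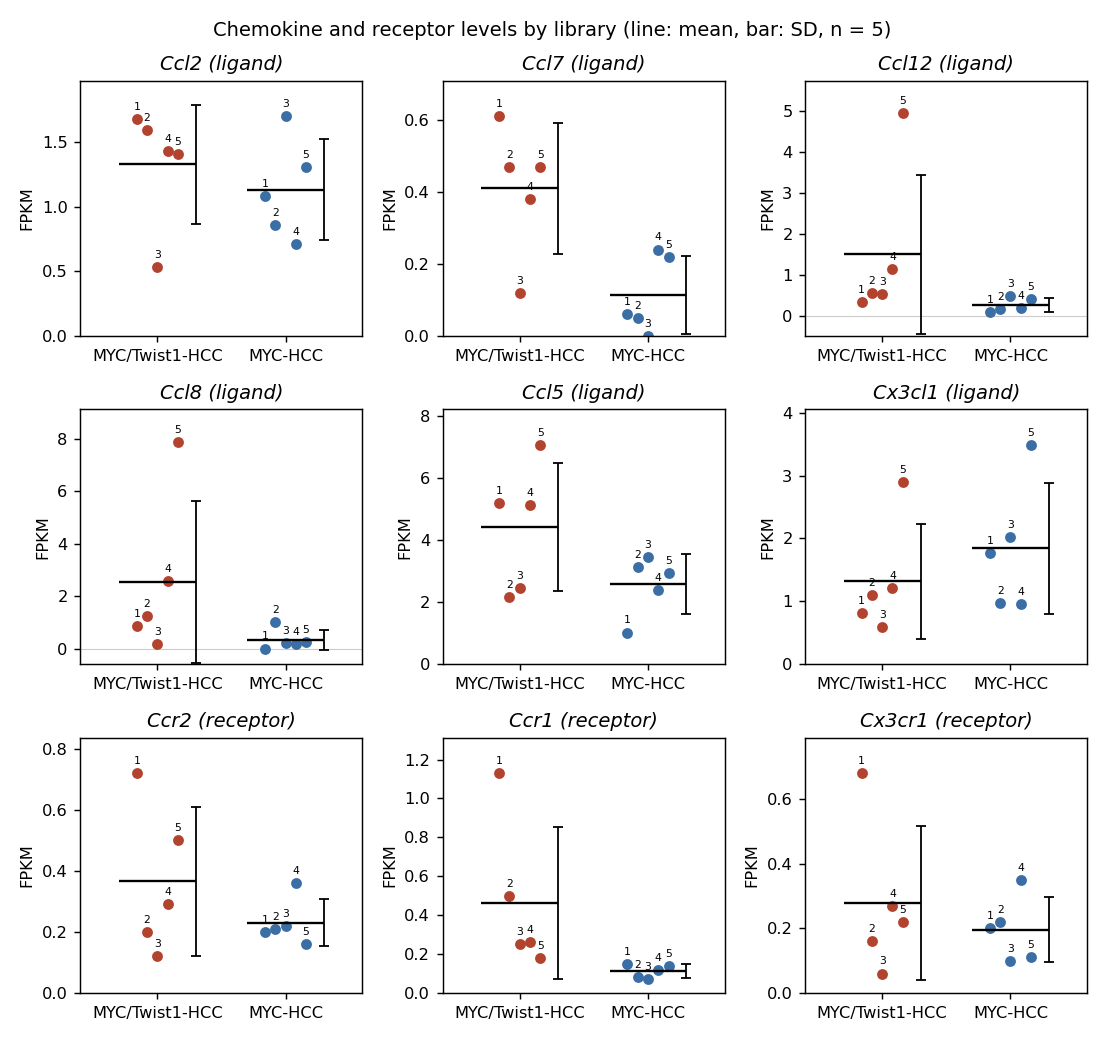
FPKM of the 6 ligands and 3 receptors in each library (points, numbered by replicate or library), with MYC/Twist1-HCC on the left and MYC-HCC on the right of each panel, the mean as a line and the SD as a bar (n = 5). Ccr1 is the gene whose groups do not overlap, with 0.18 to 1.13 FPKM in MYC/Twist1-HCC and 0.07 to 0.15 FPKM in MYC-HCC, while Ccl2 spans 0.53 to 1.68 FPKM in MYC/Twist1-HCC and 0.71 to 1.70 FPKM in MYC-HCC.

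Ccl7, a ligand of Ccr2 and Ccr1, was low in all tumors and lowest in MYC-HCC. MYC/Twist1-HCC replicates 1 to 5 had 0.61, 0.47, 0.12, 0.38 and 0.47 FPKM, and MYC-HCC libraries 1 to 5 had 0.06, 0.05, 0, 0.24 and 0.22 FPKM. Replicate 3 lay inside the MYC-HCC range and the other 4 MYC/Twist1-HCC libraries above it. The means were 0.41 ± 0.182 FPKM in MYC/Twist1-HCC and 0.114 ± 0.109 FPKM in MYC-HCC (SD, n = 5 each). The log2 difference was 1.31 (SE 0.42, 95% interval 0.38 to 2.24), with an unadjusted p of 0.0103 and an adjusted p of 0.256 in limma. The exact permutation test over the 252 assignments of the libraries gave p = 0.0317 (two-sided, unadjusted, where the smallest possible is 0.00794). At most 11 reads in 1 library stood behind these values, and the log2 difference was 0.34 with 1 and 2.31 with 0.01 added to the FPKM in place of 0.1. Without MYC-HCC library 4 the difference was 1.51 (adjusted p = 0.0735 in limma, over the alternatives 0.0735 to 0.468).

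Ccl12, a mouse monocyte chemoattractant of the same cluster, had its highest levels in 1 tumor. It was at 0.33, 0.55, 0.52, 1.15 and 4.93 FPKM over MYC/Twist1-HCC replicates 1 to 5, against 0.09, 0.16, 0.49, 0.18 and 0.41 FPKM in MYC-HCC libraries 1 to 5. In MYC/Twist1-HCC, 4 of 5 libraries lay above the highest MYC-HCC library, and replicate 1 lay among the MYC-HCC values. The means were 1.50 ± 1.94 FPKM in MYC/Twist1-HCC and 0.266 ± 0.174 FPKM in MYC-HCC (SD, n = 5 each), a log2 difference of 1.61 (SE 0.63, 95% interval 0.22 to 2.99, adjusted p = 0.33 in limma). The exact permutation test gave p = 0.0397 (two-sided, unadjusted). The difference was 1.03 without replicate 5 (adjusted p = 0.509, limma), 1.54 without MYC-HCC library 4, and the adjusted p ran from 0.208 to 0.55 over the alternatives.

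Ccl8, which lies 13340 bp from Ccl12 between their starts and in the mouse is known as a ligand of Ccr8, had the largest difference among the 9 genes. MYC/Twist1-HCC replicates 1 to 5 had 0.87, 1.24, 0.18, 2.58 and 7.87 FPKM, and MYC-HCC libraries 1 to 5 had 0, 1.0, 0.20, 0.19 and 0.26 FPKM. Of the MYC/Twist1-HCC libraries, 3 of 5 lay above the highest MYC-HCC library, and replicate 3 lay below most MYC-HCC libraries. The means were 2.55 ± 3.10 FPKM in MYC/Twist1-HCC and 0.33 ± 0.387 FPKM in MYC-HCC (SD, n = 5 each). The log2 difference was 2.23 (SE 0.86, 95% interval 0.34 to 4.12), with an unadjusted p of 0.0251 and an adjusted p of 0.252 in limma. With library quality weights Ccl8 passed the threshold of 0.05, at a log2 difference of 2.75 (adjusted p = 0.0312 in limma, between 0.0312 and 0.466 in the alternatives). That setting also called 1008 genes higher and 1469 lower over the table. Without replicate 5 the difference was 1.63 (adjusted p = 0.466, limma), and without MYC-HCC library 4 it was 2.19 (adjusted p = 0.14, limma). Ccl8 was kept by the expression filter through 4 libraries of MYC/Twist1-HCC and 1 of MYC-HCC at 0.5 FPKM or more.

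The libraries with the most Ccl12 and Ccl8 were also those with high macrophage and Kupffer cell markers. In MYC/Twist1-HCC replicates 4 and 5 the summed macrophage list (12 genes) was at 791 and 1240 FPKM and the summed Kupffer cell list (5 genes) at 243 and 327 FPKM, the highest of that group. Over all libraries the macrophage sum was 387 to 1240 FPKM in MYC/Twist1-HCC and 276 to 958 FPKM in MYC-HCC, and the Kupffer sum was 27.6 to 327 FPKM in MYC/Twist1-HCC and 43.5 to 215 FPKM in MYC-HCC. MYC-HCC library 3, with a macrophage sum of 958 FPKM, had 0.20 FPKM of Ccl8. Of the 11 macrophage genes tested 0 passed the test and 1 had an unadjusted p under 0.05, of the 5 Kupffer genes 0 did either, and no gene of these lists was at 0 in every library. The part of these cells in the Ccl12 and Ccl8 levels was not tested.

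Ccl5, a ligand of Ccr1 made largely by T and NK cells and also by macrophages, was the most abundant of the 6 ligands in most libraries. It was at 5.22, 2.19, 2.47, 5.13 and 7.09 FPKM over MYC/Twist1-HCC replicates 1 to 5, against 1.03, 3.15, 3.48, 2.39 and 2.96 FPKM in MYC-HCC libraries 1 to 5. In MYC/Twist1-HCC, replicates 1, 4 and 5 lay above every MYC-HCC library and replicates 2 and 3 within their range. The means were 4.42 ± 2.06 FPKM in MYC/Twist1-HCC and 2.60 ± 0.964 FPKM in MYC-HCC (SD, n = 5 each), a log2 difference of 0.71 (SE 0.40, 95% interval -0.16 to 1.58, adjusted p = 0.387 in limma). It was 0.42 without MYC-HCC library 1 (adjusted p = 0.635, limma), the library with the least Ccl5, and the adjusted p ran from 0.0545 to 0.648 over the alternatives. The summed T and NK cell list (10 genes) was at 7.09 to 15.4 FPKM in MYC/Twist1-HCC and at 4.42 to 6.71 FPKM in MYC-HCC, with 0 of 5 tested genes past the test, 3 at an unadjusted p under 0.05 and none at 0 in every library. Within MYC/Twist1-HCC the T and NK cell sums of replicates 1 to 5 were 12.6, 7.09, 9.81, 8.77 and 15.4 FPKM, so that replicates 5 and 1 were high in both, while replicate 4, with about as much Ccl5 as replicate 1, had a lower sum than replicate 3, and the part of these cells in the Ccl5 level was not tested.

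Cx3cl1, the membrane-bound ligand, was the member with a lower mean in MYC/Twist1-HCC. MYC/Twist1-HCC replicates 1 to 5 had 0.81, 1.11, 0.59, 1.21 and 2.89 FPKM, and MYC-HCC libraries 1 to 5 had 1.77, 0.97, 2.03, 0.96 and 3.49 FPKM. The groups overlapped almost fully, with replicate 3 the lowest and MYC-HCC library 5 the highest of the 10. The means were 1.32 ± 0.91 FPKM in MYC/Twist1-HCC and 1.84 ± 1.04 FPKM in MYC-HCC (SD, n = 5 each), a log2 difference of -0.49 (SE 0.44, 95% interval -1.47 to 0.49, adjusted p = 0.596 in limma, between 0.111 and 0.822 in the alternatives). It was -0.23 without MYC-HCC library 5, -0.28 without MYC/Twist1-HCC replicate 3 and -0.81 without replicate 5. Its 3930 bp model gave it an estimated 49.7 to 239.4 reads per MYC/Twist1-HCC library and 78.7 to 312.7 reads per MYC-HCC library.

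**Figure D2:**
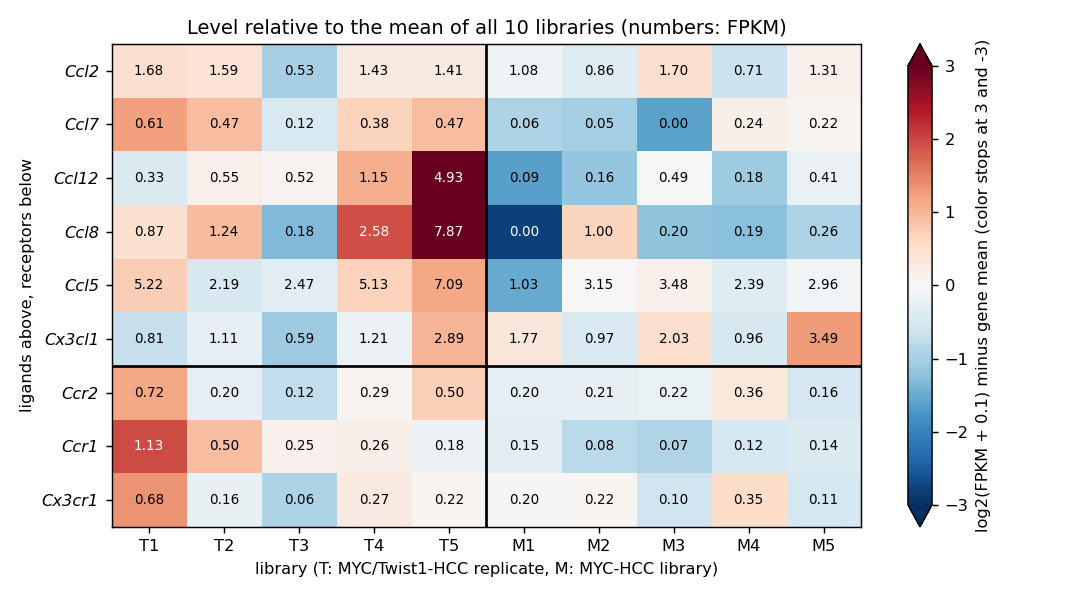
Level of each gene in each library relative to its mean over the 10 libraries, as log2(FPKM + 0.1) (color), with the FPKM printed in each cell, MYC/Twist1-HCC replicates (T) left of MYC-HCC libraries (M) and ligands above receptors. The receptors are highest in T1, where Ccr1 is at 1.13 FPKM, while Ccl12, Ccl8 and Ccl5 are highest in T5, at 4.93, 7.87 and 7.09 FPKM.

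Ccr1, a receptor of Ccl5 and Ccl7 on monocytes and neutrophils, was the 1 member of 9 whose groups did not overlap. It was at 1.13, 0.50, 0.25, 0.26 and 0.18 FPKM over MYC/Twist1-HCC replicates 1 to 5, against 0.15, 0.08, 0.07, 0.12 and 0.14 FPKM in MYC-HCC libraries 1 to 5. The gap between the groups was narrow, since the lowest MYC/Twist1-HCC value stood on an estimated 10.7 reads and the highest MYC-HCC value on 9 reads. The means were 0.464 ± 0.391 FPKM in MYC/Twist1-HCC and 0.112 ± 0.0356 FPKM in MYC-HCC (SD, n = 5 each). The log2 difference was 1.20 (SE 0.39, 95% interval 0.35 to 2.06), with an unadjusted p of 0.0103 and an adjusted p of 0.256 in limma. The exact permutation test gave p = 0.00794 (two-sided, unadjusted), the smallest that 5 against 5 libraries can give. Without replicate 1 the difference was 0.86 (adjusted p = 0.393, limma), and without MYC-HCC library 4 it was 1.22 (adjusted p = 0.123 in limma, between 0.123 and 0.452 in the alternatives). Over the 20442 genes with a value above 0 in at least 5 libraries, 1.73% had groups without overlap and higher in MYC/Twist1-HCC, and 1.12% lower.

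Neutrophil markers were high in the same libraries as Ccr1. The summed neutrophil list (6 genes, led by S100a9, S100a8 and Retnlg) was at 408, 60.1, 22.8, 27.0 and 12.4 FPKM over MYC/Twist1-HCC replicates 1 to 5, against 3.61, 1.58, 3.60, 6.79 and 5.04 FPKM in MYC-HCC libraries 1 to 5, with no overlap. The 5 MYC/Twist1-HCC replicates stood in the same order for this sum as for Ccr1, and for Chil3, a gene of the monocyte list that granulocyte precursors also express, at 14.46, 3.45, 1.40, 1.97 and 0.49 FPKM. S100a8 did not keep this order, with 5.23 FPKM in replicate 3 and 4.31 FPKM in replicate 4. Ccr1 stood there on an estimated 15.2 and 16.7 reads, so the order of these replicates is not firm. Within MYC-HCC the orders differed, with the highest neutrophil sum in library 4 and the most Ccr1 in library 1. Chil3 was below the expression filter and did not pass in the wider fit (log2 difference 3.71, adjusted p = 0.105 in limma). The 4 genes of its list past the filter had a median log2 difference of -0.08, against -0.04 over the table, with Plac8 at 0.12 and Treml4 at -0.40. Of the 6 listed genes 3 passed the expression filter, Retnlg among them through the MYC/Twist1-HCC libraries in which it was high, and 0 passed limma's test, S100a8 being at 24.0 ± 38.6 FPKM in MYC/Twist1-HCC and at 0.738 ± 0.356 FPKM in MYC-HCC (SD, n = 5 each, adjusted p = 0.098). No gene of the list was at 0 in every library. The part of neutrophils in the Ccr1 level was not tested.

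Ccr2, the receptor of Ccl2, Ccl7 and Ccl12 on classical monocytes, had overlapping groups. MYC/Twist1-HCC replicates 1 to 5 had 0.72, 0.20, 0.12, 0.29 and 0.50 FPKM, and MYC-HCC libraries 1 to 5 had 0.20, 0.21, 0.22, 0.36 and 0.16 FPKM. Replicates 1 and 5 lay above the MYC-HCC libraries and replicate 3 below them all. The means were 0.366 ± 0.243 FPKM in MYC/Twist1-HCC and 0.23 ± 0.0762 FPKM in MYC-HCC (SD, n = 5 each), a log2 difference of 0.37 (SE 0.37, 95% interval -0.45 to 1.18, adjusted p = 0.721 in limma). Without replicate 1 it was 0.12 (adjusted p = 0.934 in limma, between 0.479 and 0.934 in the alternatives). The summed monocyte list (10 genes) was at 17.0 to 41.4 FPKM in MYC/Twist1-HCC and at 10.3 to 29.4 FPKM in MYC-HCC, with 0 of the 4 genes past the expression filter past the test and none at 0 in every library. Its highest sum was in replicate 1, where Chil3 made up 14.46 FPKM, but replicate 3, the lowest in Ccr2, had a sum of 33.3 FPKM, and the part of these cells in the Ccr2 level was not tested.

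Cx3cr1, the receptor of Cx3cl1 on patrolling monocytes and macrophages, was the lowest member in MYC/Twist1-HCC by its mean. It was at 0.68, 0.16, 0.06, 0.27 and 0.22 FPKM over MYC/Twist1-HCC replicates 1 to 5, against 0.20, 0.22, 0.10, 0.35 and 0.11 FPKM in MYC-HCC libraries 1 to 5. Replicate 1 lay above all other libraries, and the other 4 replicates lay within or below the MYC-HCC range. The means were 0.278 ± 0.238 FPKM in MYC/Twist1-HCC and 0.196 ± 0.101 FPKM in MYC-HCC (SD, n = 5 each), a log2 difference of 0.22 (SE 0.41, 95% interval -0.69 to 1.12, adjusted p = 0.868 in limma). Without replicate 1 the sign turned, at -0.10 (adjusted p = 0.951 in limma, between 0.621 and 0.963 in the alternatives). The gene model of Cx3cr1 is long and spans several genes, and it shares 78 exon bases with the antisense gene Gm33858, whose reads cannot be told apart from it where the counting did not use strand.

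**Figure D3:**
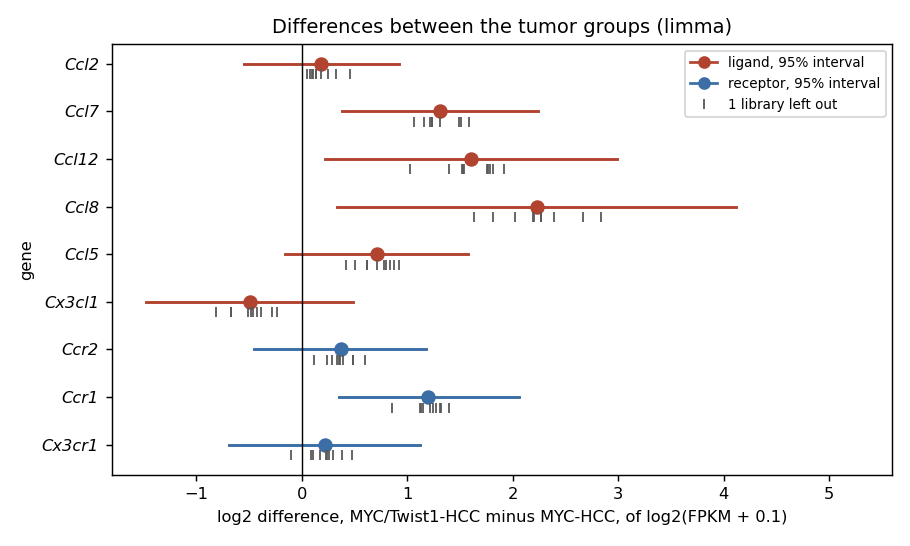
Log2 difference of each gene, MYC/Twist1-HCC minus MYC-HCC, on log2(FPKM + 0.1), with its 95% interval from limma (ligands red, receptors blue) and the value with each library left out in turn (ticks). Before adjustment the intervals of Ccl7, Ccl12, Ccl8 and Ccr1 lie above 0, that of Ccl2 runs from -0.55 to 0.92, and the ticks of Cx3cr1 run from -0.10 to 0.48.

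Set against the whole table, none of the members was called. Of the 4 members past the expression filter (Ccl2, Ccl8, Ccl5 and Cx3cl1), 0 passed the adjusted test, where 0.0247% of 12146 genes were higher (3 genes) and 0% lower. At an unadjusted p under 0.05, 1 of these 4 (Ccl8) was higher and 0 were lower, against 7.83% and 8.51% of the genes. None of the 4 had groups without overlap, against 2.35% of the genes with MYC/Twist1-HCC higher and 1.67% with it lower. Over the wider table of 20442 genes 0 of the 9 members passed, against 0.0147% higher, and 4 of the 9 (Ccl7, Ccl12, Ccl8 and Ccr1) were higher at an unadjusted p under 0.05 and 0 lower, against 6.81% and 6.37% of the genes. The log2 difference was positive in 8 of the 9, with a median of 0.71, against a median of -0.01 over the wider table. With 1 added to the FPKM in place of 0.1, the log2 differences of Ccl7, Ccl12, Ccl8 and Ccr1 were 0.34, 0.73, 1.09 and 0.36, and with 0.01 added they were 2.31, 1.95, 3.04 and 1.69, with the same sign throughout. The members were not drawn at random and 4 of them lie in 1 cluster, so these counts describe the 9 genes and test nothing about them together.

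The highest libraries of the receptors and of several ligands were different tumors. All 3 receptors were highest of the 10 libraries in MYC/Twist1-HCC replicate 1, which also had the highest Ccl7, 0.61 FPKM, and the highest Ccl2 of its group, 1.68 FPKM. The ligands Ccl12, Ccl8 and Ccl5 were highest in replicate 5, where Ccr1 was at its lowest within the group, 0.18 FPKM. Replicate 3, with 77.19 FPKM of Twist1, was the lowest of the MYC/Twist1-HCC libraries for 6 of the 9 members and the lowest of all 10 libraries for Ccl2, Cx3cl1, Ccr2 and Cx3cr1. The share of all genes that were lowest in replicate 3 was not computed, so these counts cannot be called particular to the members. Twist1 and the members did not have the same highest library. With 5 tumors no relation across them was computed, and the part of the Twist1 level was not tested.

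The balance of ligand to receptor within a tumor, as log2((ligand + 0.1)/(receptor + 0.1)) of FPKM, overlapped between the groups for all 6 pairs examined. Ccl2 exceeded Ccr2 in every library, with ratios of 1.12 to 2.49 (median 1.52) in MYC/Twist1-HCC and of 0.82 to 2.49 (median 1.98) in MYC-HCC. The group means were 1.69 ± 0.55 in MYC/Twist1-HCC and 1.87 ± 0.69 in MYC-HCC (SD, n = 5 each), a difference of -0.18 that ran from -0.45 without MYC-HCC library 4 to -0.03 without library 3. The Ccl2 balance was thus as wide within a group as between the groups. Such ratios compare 2 genes on a scale that corrects for model length, and they carry no test. The model is 6760 bp for Ccr2 and 1138 bp for Ccl2. In estimated reads summed over 5 libraries, Ccr2 stood above Ccl2 in both groups. The sums were 274.5 against 169.4 in MYC/Twist1-HCC and 165.7 against 136.8 in MYC-HCC, so the excess of Ccl2 rests on the correction for length.

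For Ccl7 and Ccl12 the mean ratio to Ccr2 was higher in MYC/Twist1-HCC. Ccl7 to Ccr2 was -0.21 to 0.93 (mean 0.19 ± 0.45) in MYC/Twist1-HCC and -1.68 to 0.30 (mean -0.75 ± 0.74) in MYC-HCC (SD, n = 5 each), a difference of 0.94, which was 0.20 with 1 added and 1.87 with 0.01 added in place of 0.1. Ccl12 to Ccr2 was -0.93 to 3.07 (mean 1.29 ± 1.44) in MYC/Twist1-HCC and -0.72 to 0.97 (mean 0.05 ± 0.83) in MYC-HCC (SD, n = 5 each), a difference of 1.24, which was 0.79 without replicate 5 and 0.60 with 1 added in place of 0.1. Both lists of ratios overlap, and in both the lowest MYC/Twist1-HCC value came from replicate 1, the tumor with the most Ccr2.

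The mean ratios to Ccr1 and Cx3cr1 differed by less than the spread of the libraries. Ccl7 to Ccr1 was -0.79 to 1.03 (mean -0.02 ± 0.76) in MYC/Twist1-HCC and -0.77 to 0.63 (mean -0.13 ± 0.62) in MYC-HCC (SD, n = 5 each), a difference of 0.11 that ran from -0.15 to 0.30 with a library left out. Ccl5 to Ccr1 was 1.93 to 4.68 (mean 3.09 ± 1.17) in MYC/Twist1-HCC and 2.18 to 4.40 (mean 3.58 ± 0.87) in MYC-HCC (SD, n = 5 each), a difference of -0.49 that was 0.19 with 1 added and -0.95 with 0.01 added in place of 0.1, and -0.89 to -0.20 with a library left out (-0.89 without replicate 5, -0.84 without MYC-HCC library 1 and -0.20 without replicate 2). Ccl5 thus stood far above Ccr1 in every tumor of both groups. Cx3cl1 to Cx3cr1 was 0.22 to 3.22 (mean 1.92 ± 1.09) in MYC/Twist1-HCC and 1.24 to 4.10 (mean 2.63 ± 1.17) in MYC-HCC (SD, n = 5 each), a difference of -0.71, which was -0.28 without replicate 1, -0.34 without MYC-HCC library 5, -1.05 without library 4 and -0.38 with 1 added.

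**Figure D4:**
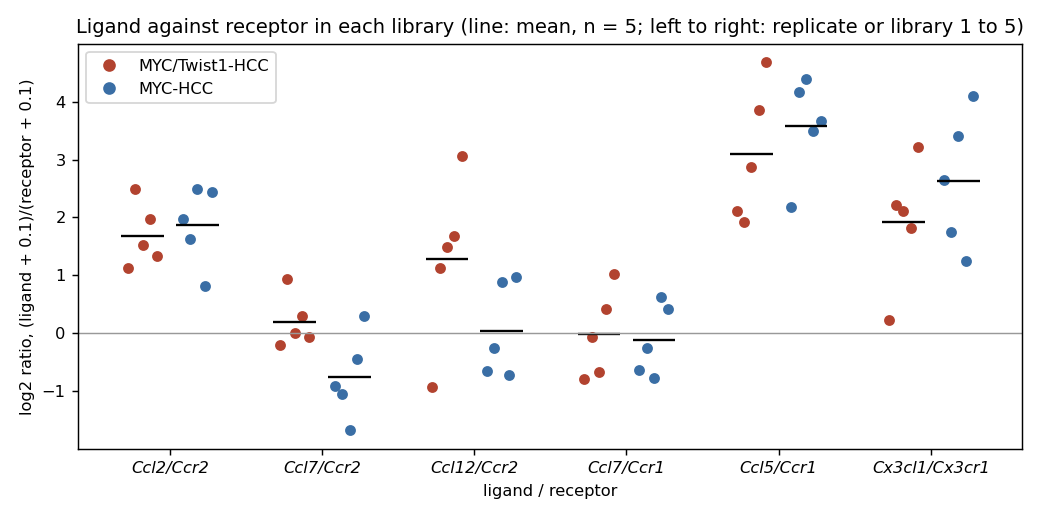
Log2 ratio of ligand to receptor FPKM (0.1 added to both) in each library, with MYC/Twist1-HCC left of MYC-HCC for each of 6 pairs and the group mean as a line (n = 5). The 2 groups overlap in every pair, and Ccl2 exceeds Ccr2 in all 10 libraries, at 0.82 to 2.49.

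In order of mean FPKM, MYC/Twist1-HCC had Ccl5, Ccl8, Ccl12, Ccl2, Cx3cl1, Ccr1, Ccl7, Ccr2 and Cx3cr1, from 4.42 to 0.278 FPKM. All 8 steps between neighbors in this order were smaller than the larger of the 2 SDs. In MYC-HCC the order was Ccl5, Cx3cl1, Ccl2, Ccl8, Ccl12, Ccr2, Cx3cr1, Ccl7 and Ccr1, from 2.60 to 0.112 FPKM, and only the step from Ccl2 to Ccl8, 0.80 FPKM, was beyond the larger SD, 0.39. Ccl5 was the highest ligand in 4 MYC/Twist1-HCC and 3 MYC-HCC libraries, with Ccl8 first in MYC/Twist1-HCC replicate 5 and Cx3cl1 in the other 2 MYC-HCC libraries. Ccr1 was the highest receptor in 3 MYC/Twist1-HCC libraries and in 0 MYC-HCC libraries, and Ccr2 in 2 MYC/Twist1-HCC and 4 MYC-HCC libraries.

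The genes whose log2 level most resembled that of Ccl2 over the 10 libraries were Ptbp3, Tmem125, Dpep1, Zfp37 and Tmc4, with Pearson r of 0.849 to 0.857. For Ccr2 they were Slfn1, Prickle3, Ly6c1, Gimap8 and Zfp324, with r of 0.872 to 0.932. Ly6c1 encodes a Ly6C antigen of endothelial cells, lymphocytes and monocytes. For Cx3cr1 they were Siglece, Prickle3, Hyal1, Zscan22 and Ogfrl1, with r of 0.833 to 0.879, and Siglece encodes a sialic acid receptor of myeloid cells. These are the highest correlations over 10 shared libraries among the 12146 genes, after Gm, Rik and similar provisional names were left out. They are given as a description of likeness, and Prickle3 was on 2 of the 3 lists.

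Other CC chemokines taken as a list had higher mean levels in MYC/Twist1-HCC. Ccl9, a mouse ligand of Ccr1, was at 9.88, 5.40, 9.18, 7.86 and 10.30 FPKM over MYC/Twist1-HCC replicates 1 to 5, against 2.24, 1.40, 3.75, 1.57 and 3.42 FPKM in MYC-HCC libraries 1 to 5, with no overlap. Its groups differed by 1.81 on the log2 scale (SE 0.30, adjusted p = 0.0704 in limma, between 0.00828 and 0.163 in 19 alternatives, of which 4 called it), and without MYC-HCC library 4 it was 1.68 (adjusted p = 0.0212, limma). Groups that do not overlap with MYC/Twist1-HCC higher made up 2.35% of the 12146 genes. Ccl6, another mouse ligand of Ccr1 made by myeloid cells, was at 30.0 ± 12.5 FPKM in MYC/Twist1-HCC and 12.4 ± 5.25 FPKM in MYC-HCC (SD, n = 5 each, log2 difference 1.20, adjusted p = 0.207 in limma, between 0.0196 and 0.408 in the alternatives, with 1 call, under library quality weights). Ccl3, a further ligand of Ccr1, was at 1.98 ± 1.27 FPKM in MYC/Twist1-HCC and 0.774 ± 0.191 FPKM in MYC-HCC (SD, n = 5 each, log2 difference 1.04, adjusted p = 0.27 in limma). Ccl4 was at 0.81, 0.38, 0.7, 2.13 and 3.94 FPKM over MYC/Twist1-HCC replicates 1 to 5. MYC-HCC libraries 1 to 5 had 1.0, 1.36, 0.79, 1.81 and 0.53 FPKM of Ccl4. Only replicates 4 and 5 lay above every MYC-HCC library. Of the 4 other CC chemokines listed (Ccl3, Ccl4, Ccl6 and Ccl9), 0 passed the test, 3 were higher at an unadjusted p under 0.05, and the median log2 difference was 1.12, against -0.04 over the table.

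Other receptors and the enzymes that process chemokines were taken as lists. Of 7 other CC and CX3C receptors and scavengers, 2 were expressed enough to test and 0 passed, with Ccrl2, a chemerin-binding receptor, at a log2 difference of 0.71 (adjusted p = 0.437 in limma, between 0.0205 and 0.691 in the alternatives) and Ccr3, the eotaxin receptor, at 0.63 (adjusted p = 0.454, limma). Without MYC-HCC library 4 Ccrl2 was at 1.12 (adjusted p = 0.0433, limma). Of 5 enzymes that cut chemokines, 0 passed and the median was -0.15. Dpp4, which trims the amino end of chemokines, was at 2.60 ± 1.99 FPKM in MYC/Twist1-HCC and 5.85 ± 3.85 FPKM in MYC-HCC (SD, n = 5 each, adjusted p = 0.332 in limma), and the log2 differences of Adam10, a sheddase of Cx3cl1, and of Ctss, cathepsin S, were -0.22 and 0.45. Adam10 had an adjusted p between 0.0434 and 0.684 in the alternatives (limma), with 1 call, under library quality weights.

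Of 11 tested genes that signal below chemokine receptors (13 listed), 0 passed and the median was 0.12. Nup85, a nucleoporin that also binds Ccr2, was at 26.3 ± 6.38 FPKM in MYC/Twist1-HCC and 39.1 ± 11.7 FPKM in MYC-HCC (SD, n = 5 each, log2 difference -0.55, adjusted p = 0.318 in limma, between 0.0264 and 0.569 in the alternatives), and without MYC-HCC library 4 at -0.75 (adjusted p = 0.0478, limma). Gnai2, an inhibitory G protein, and Jak2, a kinase, had log2 differences of 0.30 and 0.57. Of 8 tested genes upstream of Ccl2 (11 listed), 0 passed, 2 were higher at an unadjusted p under 0.05 and the median was 0.31. Rela, the p65 subunit of NF-kB, was at 25.4 ± 3.62 FPKM in MYC/Twist1-HCC and 19.4 ± 3.65 FPKM in MYC-HCC (SD, n = 5 each, log2 difference 0.39, adjusted p = 0.268 in limma), Nfkbia, its inhibitor and target, had a log2 difference of 0.57 (adjusted p = 0.299, limma) and Irf1, an interferon-induced factor, one of 0.49 (adjusted p = 0.313, limma). With library quality weights Rela and Nfkbia were called, at adjusted p of 0.033 and 0.042 (limma), and over the alternatives theirs reached 0.484 and 0.537.

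**Figure D5:**
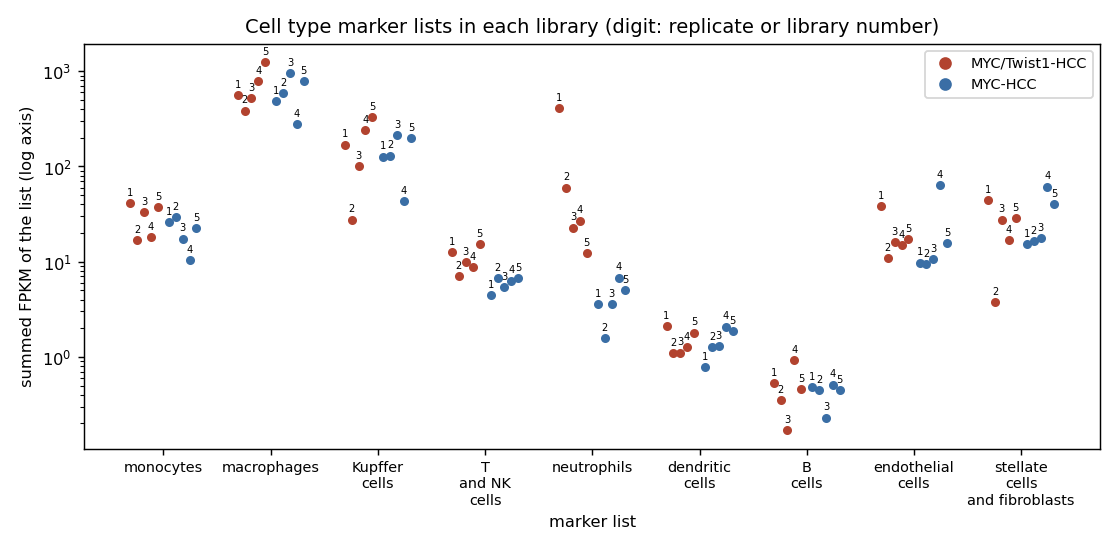
Summed FPKM (log axis) of 9 cell type marker lists in each library, with MYC/Twist1-HCC left of MYC-HCC in each column and the digit giving the replicate or library. The neutrophil sums do not overlap (12.4 to 408 FPKM in MYC/Twist1-HCC and 1.58 to 6.79 FPKM in MYC-HCC), nor do those of T and NK cells (7.09 to 15.4 FPKM in MYC/Twist1-HCC and 4.42 to 6.71 FPKM in MYC-HCC), while the monocyte, macrophage and Kupffer cell sums do.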

How the data were processed

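The authors deposited FPKM with 2 decimals for 52459 genes in 10 libraries. Their paper names BGIseq-500 single-end sequencing, RSEM and DEseq. The processing notes of the submitters list mm10, STAR, featureCounts, Trimmomatic, Picard and DESeq2, without versions. Whether counting used strand was not given in the sources used here. Depth was estimated from GENCODE vM21 models under 150 bp, where 99.5% to 100% of values came to whole reads within 0.1.

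Genes that reached 0.5 FPKM in 5 or more libraries were tested as log2(FPKM + 0.1) with limma 3.58.1 (R 4.3.3; variance trend, two-sided, Benjamini-Hochberg, threshold 0.05). Members below this filter (Ccl7, Ccl12, Ccr2, Ccr1 and Cx3cr1) were tested in the same way over genes above 0 in at least 5 libraries, and by exact permutation. Fold changes on this scale understate those of low genes. The p-values measure the spread between these libraries, which the labels do not tie to single mice. Fits were tested on simulated data.

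Named are the members, the 5 genes most correlated with Ccl2, Ccr2 and Cx3cr1 (without Gm, Rik and similar provisional names), up to 3 genes of smallest p per pathway list, marker genes of highest FPKM, and Twist1. Chil3 and S100a8 as examples, and the order of libraries, were picked after their values were seen. Members and lists were chosen with earlier results of these data known. Python 3.11.15, numpy 2.4.6, pandas 2.3.3 and matplotlib 3.10.9 were used.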

Additional observations from a re-analysis of the deposited data

Results flagged for a closer look

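Of 18 groups of 5 libraries (9 genes in each group), 4 held a library far from the other 4 by Dixon's criterion (gap over range above 0.71). The rate of about 1 in 20 behind this criterion is for independent values with a normal distribution. These values are FPKM, some near the floor, and the members share the same libraries. The count therefore cannot be set against that rate. Ccl2 was low in MYC/Twist1-HCC replicate 3, at 0.53 FPKM. Ccl12 and Cx3cl1 were high in MYC/Twist1-HCC replicate 5, at 4.93 and 2.89 FPKM. Ccl8 was high in MYC-HCC library 2, at 1.0 FPKM, where the other MYC-HCC libraries had 0 to 0.26 FPKM. The Ccl8 level of 7.87 FPKM in MYC/Twist1-HCC replicate 5 did not meet the criterion.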

How the results depend on the processing

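Of 141 values of the members' log2 differences under alternatives, 136 kept their direction and side of the threshold. Some of these could not change direction. Filter changes and the fit without a variance trend used the same values, and exact permutation kept the main difference. The permutation p, unadjusted, was set against the same threshold, so the count does not measure how robust the differences are. Ccl8 passed with library quality weights (2.75, adjusted p = 0.0312 in limma), so that 1 of the 4 members fitted there was called. Quality weights, scaling, normalization, variance trend and filter changes were run only for the 4 members past the expression filter. The adjusted p of the other 5 members cover only other added values and left-out libraries, so their ranges span fewer settings. Ccl7, Ccl12 and Ccr1 were under 0.05 by exact permutation before adjustment. Cx3cr1 turned to -0.10 without MYC/Twist1-HCC replicate 1 and was at most 0.48 with a library left out. The number of genes higher over the expression-filtered table (3) was 5 with 1 added in place of 0.1, 1 with 0.01 added, 21 with median-ratio scaling, 1008 with quality weights (1469 lower) and 1 to 526 with a library left out (0 to 573 lower), the highest without MYC-HCC library 4, 32 without library 5 and 1 without MYC/Twist1-HCC replicate 1 or 4. In the wider table it was 1 with 1 added and 2 to 271 with a library left out, and 0 to 231 were lower. The highest counts again came without MYC-HCC library 4. In each of these fits with a library left out, 0 members were called. The difference in the Ccl7 to Ccr2 ratio was 0.20 with 1 added and 1.87 with 0.01 added, 0.94 as reported and 0.71 to 1.21 with a library left out. That of Ccl5 to Ccr1 was 0.19 with 1 added and -0.95 with 0.01 added, and that of Ccl7 to Ccr1 from -0.15 to 0.30 with a library left out. No paired analysis was possible because the MYC-HCC columns carry no number of their own. The labels and the paper also name no pairing of tumors between the groups, which came from mice of different genotypes. With 5 libraries a group and at most 11 reads of Ccl7 per library, differences of the lowest genes were not detectable beyond the intervals given.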

Other observations

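The cell type lists that stand beside no chemokine result were examined in the same way, and 0 genes of any of them passed limma's test. Of 8 hepatocyte genes, 3 were higher at an unadjusted p under 0.05, with the list's sum at 4490 to 12500 FPKM in MYC/Twist1-HCC and at 1860 to 7860 FPKM in MYC-HCC. Apoa1, the main protein of HDL, was at 1648.29 to 3596.25 FPKM in MYC/Twist1-HCC and at 508.32 to 1236.38 FPKM in MYC-HCC, with no overlap (log2 difference 1.41, adjusted p = 0.13 in limma). The stellate cell and fibroblast sum was 3.74 to 44.7 FPKM in MYC/Twist1-HCC and 15.2 to 61.6 FPKM in MYC-HCC, and the endothelial sum 10.9 to 38.0 FPKM in MYC/Twist1-HCC and 9.41 to 63.6 FPKM in MYC-HCC. MYC/Twist1-HCC replicate 1, where the 3 receptors were highest, also had the highest endothelial and stellate sums of its group. Dendritic cell and B cell markers were near the floor, with sums of 1.1 to 2.11 and 0.17 to 0.92 FPKM in MYC/Twist1-HCC and of 0.78 to 2.08 and 0.23 to 0.51 FPKM in MYC-HCC.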
